A study of Mus musculus with 20 samples.

Results

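The genes described here are the mouse interleukins and interleukin receptors outside the IL-33, IL-4 and IL-13 pathways. They were taken by name: every gene whose symbol starts with Il and a digit, leaving out Il33, Il1rl1, Il1rap, Il4ra, Il13ra1, Il13ra2, Il13 and Il4, and keeping those with 10 or more counts summed over the 20 libraries. Of 83 such symbols, 8 were left out by name and 12 had fewer than 10 counts, which left 63 genes of the 24054 in the table. Among the 63 genes, 51 had enough counts for the test. Il4i1, an L-amino acid oxidase that is named for its induction by IL-4, and Il1bos, an antisense transcript at Il1b, are in the set by name only.

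Interleukins are secreted proteins through which immune and tissue cells instruct each other, and each acts through a receptor built from a private chain and, often, a chain shared by a family. Receptors of the IL-2, IL-6, IL-10 and IL-12 families signal through Janus kinases and STAT factors, while receptors of the IL-1 family use MyD88 and those of the IL-17 family use the adaptor Act1 (Traf3ip2). Decoy receptors, receptor antagonists and soluble binding proteins hold several of these signals in check, and in the allergic lung IL-5, IL-9, IL-17 and IL-1 family signals are known to steer eosinophils, mast cells, neutrophils and T cells.

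RNA was sequenced from whole lungs of female C57Bl6 mice in 4 groups of 5 libraries, each titled a biological replicate. The groups were ALOX15 KO given house dust mite extract (KO_HDM), ALOX15 KO given saline (KO_saline), wild type given house dust mite extract (WT_HDM) and wild type given saline (WT_saline). House dust mite extract (HDM), an inhaled allergen, was given into the nose every day for 14 days. The labels name no construct, promoter or cell type for the knockout and no age. Alox15 is the gene of an enzyme that adds oxygen to polyunsaturated lipids.

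Library totals lay between 17840138 and 21082770 expected counts in KO_HDM, 21120878 and 23305673 in KO_saline, 12573113 and 20662632 in WT_HDM, and 15601878 and 21715842 in WT_saline. Alox15 did not follow its label: it held 40.8 ± 2.45 CPM (counts scaled to library size) in KO_saline and 4.58 ± 4.00 CPM in WT_saline (SD, n = 5 each), and genotype below means the label on the library. Library WT_saline 4 stood apart, with summed T cell markers of 270.4 CPM where every other saline library had at most 101.9 CPM, the value of KO_saline 4. Dendritic cell markers summed to 125.2 CPM in WT_saline 4 and to at most 87.5 CPM in the other saline libraries. Of the interleukin genes, 9 were at least 2 times as high in WT_saline 4 as in any other WT_saline library, so that values with and without it are given where it changes a call. Adipoq, an adipocyte gene, was at 50 CPM or more in 5 libraries (KO_HDM 5, WT_HDM 2 and 4, WT_saline 2 and 4). Lung epithelial and endothelial markers were present in every library.

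Genes were called higher or lower when the Benjamini-Hochberg adjusted p of edgeR's quasi-likelihood test, over all 16193 genes tested, was under 0.05. Adjusted p-values below are of this kind, values after ± on a log2 fold change are standard errors, and CPM are given for libraries 1 to 5 of a group in that order. In whole lung, fewer cells of a type and less RNA per cell cannot be told apart.

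The promoters of 4 genes that carried the responses are shown first: among the 51 tested genes Il21 had the greatest rise with HDM, Il1rn and Il1r2 encode brakes on IL-1, and Il31ra differed most of the tested genes between genotypes under HDM. Windows run from 250 bases before to 50 bases after a RefSeq gene start (GRCm38.p6), and 48 of the 63 genes had one or more, 59 windows in all. They were searched on both strands for TTCNNNGAA, a motif bound by STAT factors, for TTCNNNNGAA, the wider spacing that STAT6 prefers, and for TGACTCA, the AP-1 motif. Capitals mark a match. The window of Il21 (chr3:37232587-37232886, minus strand) held none of the 3 motifs, and those of Il1r2 (chr1:40085843-40086142, plus strand) and Il31ra (chr13:112580613-112580912, minus strand) held TTCNNNGAA. Il1rn had 3 windows. The second, printed here (chr2:24345041-24345340, plus strand), held TTCNNNNGAA, as did the third, which overlaps it. The first (chr2:24336610-24336909, plus strand) held TGACTCA and neither of the other two motifs.
Il21: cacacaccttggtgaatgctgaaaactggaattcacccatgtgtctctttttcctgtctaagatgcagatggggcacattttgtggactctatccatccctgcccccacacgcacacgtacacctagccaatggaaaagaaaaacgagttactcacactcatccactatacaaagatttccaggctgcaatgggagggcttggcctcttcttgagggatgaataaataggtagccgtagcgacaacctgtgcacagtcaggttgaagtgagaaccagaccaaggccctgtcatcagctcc
Il1rn: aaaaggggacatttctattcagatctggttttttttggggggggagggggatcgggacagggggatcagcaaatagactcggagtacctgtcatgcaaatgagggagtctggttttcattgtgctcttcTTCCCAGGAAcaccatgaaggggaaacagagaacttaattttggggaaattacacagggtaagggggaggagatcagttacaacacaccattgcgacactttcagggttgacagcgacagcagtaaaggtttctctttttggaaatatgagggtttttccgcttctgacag
Il1r2: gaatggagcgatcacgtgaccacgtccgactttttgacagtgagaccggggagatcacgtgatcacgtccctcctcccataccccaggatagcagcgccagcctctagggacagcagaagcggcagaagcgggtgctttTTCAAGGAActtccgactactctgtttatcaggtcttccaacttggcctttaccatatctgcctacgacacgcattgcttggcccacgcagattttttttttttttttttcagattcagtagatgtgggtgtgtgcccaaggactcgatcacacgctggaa
Il31ra: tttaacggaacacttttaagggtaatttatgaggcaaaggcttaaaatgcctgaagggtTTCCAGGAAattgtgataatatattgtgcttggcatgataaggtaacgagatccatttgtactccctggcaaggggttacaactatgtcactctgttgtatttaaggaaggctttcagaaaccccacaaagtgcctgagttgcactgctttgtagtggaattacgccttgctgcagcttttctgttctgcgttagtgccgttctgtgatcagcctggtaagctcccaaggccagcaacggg

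Across the set, TTCNNNGAA was found in 8 of 59 windows (13.6%) and in 8.3% of the 32851 mouse promoter windows of the same length. TTCNNNNGAA was found in 12 windows of the set (20.3%) and in 6.95% of all windows, and TGACTCA in 9 windows of the set (15.3%) and in 5.2% of all. Several windows belong to 1 gene and overlap, so these shares are descriptions, and a match is not a binding site.

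HDM changed a large part of the set, as it did of all tested genes. In KO lungs 23 of 51 tested genes rose and 9 fell (62.7% called), beside 26.2% of all tested genes called higher, 25.7% called lower and 51.9% called in all. In WT lungs 13 rose and 7 fell (39.2% called), beside 13.6% of all tested genes called higher, 16.5% called lower and 30.1% in all. The counts of both genotypes include Il21, Il10, Il6 and Il22ra2, which passed the filter only through the groups in which they are high. The median log2 fold change of the set was 0.49 in KO lungs and 0.15 in WT lungs, against 0.02 and -0.02 over all tested genes. The 5 HDM libraries did not overlap the 5 saline libraries for 27 genes in KO lungs (52.9%; 43.9% of all tested genes) and for 7 genes in WT lungs (13.7%; 11.6% of all).

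**Figure D1:**
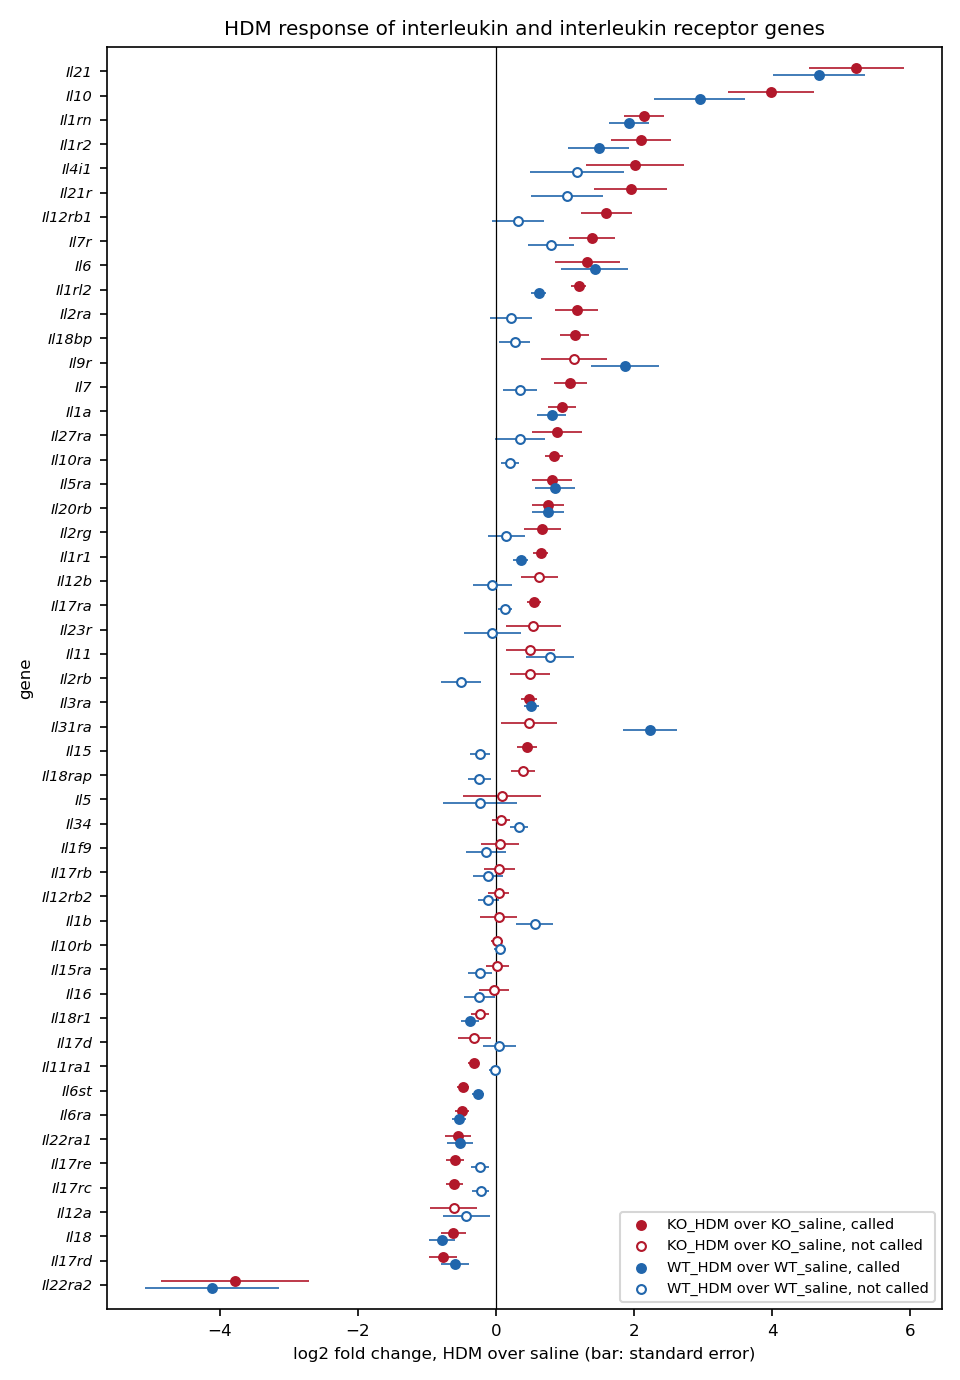
Log2 fold change with HDM of the 51 tested genes of the set (x axis, log2, bars are standard errors), with KO and WT values on each row. Filled points mark calls at an adjusted p under 0.05 and open points mark values not called. Il21 and Il10 lie farthest right in both genotypes, Il22ra2 lies farthest left, and Il31ra is at 0.48 in KO and 2.23 in WT.

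By role, 6 of 16 ligands rose and 1 fell in KO lungs, against 4 and 1 in WT lungs. Of 31 receptor chains, 14 rose and 7 fell in KO lungs, and 8 rose and 5 fell in WT lungs. The 3 soluble inhibitors split: Il1rn rose in both genotypes, Il18bp rose in KO lungs, and Il22ra2 fell in both. The genes called higher in both genotypes numbered 11, which is 47.8% of the KO list and 84.6% of the WT list; for genes called lower the number was 6, or 66.7% and 85.7%. No gene was called in opposite directions. Sharing between the genotypes was not counted over all tested genes, so these numbers describe the set and do not set it apart. The 16 tested genes called in neither genotype were Il10rb, Il11, Il12a, Il12b, Il12rb2, Il15ra, Il16, Il17d, Il17rb, Il18rap, Il1b, Il1f9, Il23r, Il2rb, Il34 and Il5.

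Some of these 16 lay near the threshold. Il12b, which encodes the chain shared by IL-12 and IL-23, was at 0.63 in KO lungs (adjusted p = 0.0535). It was called higher there in 9 of the 20 fits that left out 1 library (adjusted p 0.0214 to 0.0485), with RLE scaling (0.0493), with DESeq2 (0.0486) and with a filter of 1 CPM in 5 libraries (0.0364). Il18rap, the IL-18 receptor accessory chain, was at 0.39 in KO lungs (adjusted p = 0.0677) and was called in 7 of those fits (0.0174 to 0.0473), with the 1 CPM filter (0.0413) and in the 10 KO libraries alone (0.0312). Il34, which encodes a ligand of the CSF-1 receptor, was at 0.33 in WT lungs (adjusted p = 0.0589) and was called in 8 of those fits (0.0261 to 0.0439), with DESeq2 (0.0431) and with the 1 CPM filter (0.0318).

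Il21, which encodes a T cell cytokine that helps B cells form germinal centres and plasma cells, was nearly absent without HDM. It had 2.29, 1.95, 1.36, 2.59 and 1.46 CPM in KO_HDM and 0.0957, 0, 0, 0.13 and 0 CPM in KO_saline. In WT_HDM it had 2.97, 2.11, 1.79, 2.69 and 0.495 CPM, against 0.0635, 0.104, 0, 0.184 and 0 CPM in WT_saline. Every HDM library lay above every saline library, and WT_HDM 5 was the lowest of the HDM libraries. The log2 fold changes were 5.22 ± 0.69 in KO lungs (adjusted p = 5.67e-06) and 4.68 ± 0.67 in WT lungs (adjusted p = 5.03e-05), resting on at most a few counts per saline library. Il21 passed the count filter only through HDM libraries, where it is high, so these p-values are descriptions.

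Il10, the cytokine that restrains macrophages and dendritic cells, followed the same course at a low level. Its CPM were 1.23, 1.02, 0.973, 1.27 and 1.02 in KO_HDM and 0.0479, 0.047, 0.044, 0.0869 and 0.0912 in KO_saline. They were 0.742, 0.896, 1.01, 0.414 and 0 in WT_HDM and 0, 0.0518, 0.0532, 0.138 and 0.0942 in WT_saline. KO_HDM and KO_saline did not overlap, while WT_HDM 5 had no count and lay among the saline libraries. The rise was 3.98 ± 0.62 in KO lungs (adjusted p = 3.21e-05) and 2.95 ± 0.66 in WT lungs (adjusted p = 0.00245; 0.0991 with limma voom). Il10 also passed the filter only through HDM libraries, so its p-values are descriptions. Its receptor chain Il10ra rose in KO lungs by 0.84 ± 0.13 (adjusted p = 2.8e-05) and was at 0.21 ± 0.13 in WT lungs (adjusted p = 0.236), and the second chain Il10rb was called in neither.

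Among the pro-inflammatory ligands, Il1a, which encodes the IL-1 stored in epithelial and myeloid cells, rose by 0.96 ± 0.20 in KO lungs and 0.81 ± 0.21 in WT lungs (adjusted p = 0.000642 and 0.00584). Il6, an inducer of acute-phase proteins, averaged 0.716 ± 0.369 CPM in KO_HDM and 0.28 ± 0.1 CPM in KO_saline, and 0.722 ± 0.428 CPM in WT_HDM and 0.255 ± 0.114 CPM in WT_saline (SD, n = 5 each). The groups overlapped in both genotypes, at log2 fold changes of 1.32 ± 0.47 and 1.43 ± 0.49 (adjusted p = 0.023 in KO and 0.0319 in WT). Like Il21 and Il10, Il6 passed the filter only through HDM libraries, so its p-values are descriptions. The Il6 call in KO lungs ended without KO_saline 2, KO_HDM 4 or KO_HDM 5 (adjusted p 0.053 to 0.078). In WT lungs it ended without WT_saline 1, 2 or 4 or WT_HDM 1, 2 or 3 (0.0551 to 0.0835).

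Il1b, the inflammasome-processed IL-1, was not called: its log2 fold change was 0.04 ± 0.27 in KO lungs (adjusted p = 0.922) and 0.56 ± 0.27 in WT lungs (adjusted p = 0.124; 0.0337 without WT_HDM 4, at 0.74). Whether counting used the strand is not given in the sources used here, so that reads of Il1b and its antisense partner Il1bos may not be separate. Il5, the eosinophil growth factor, was at 0.09 ± 0.57 in KO and -0.23 ± 0.54 in WT (adjusted p = 0.911 and 0.78). Il7 and Il15, which sustain lymphocytes, rose in KO lungs by 1.08 ± 0.24 and 0.45 ± 0.15 (adjusted p = 0.00103 and 0.0168). Il15 was no longer called without KO_HDM 4 or KO_HDM 5 (adjusted p 0.052 to 0.0716). In WT lungs Il7 was at 0.35 ± 0.25 and Il15 at -0.23 ± 0.15 (adjusted p = 0.302 and 0.272).

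Il18, an interferon-gamma-inducing cytokine of the IL-1 family, was the ligand that fell. It had 5.02, 5.21, 4.67, 4.8 and 4.69 CPM in KO_HDM and 5.65, 6.86, 9.06, 7.39 and 8.62 CPM in KO_saline. In WT_HDM the values were 4.57, 3.39, 3.26, 2.9 and 5.64 CPM, and in WT_saline 8.69, 4.66, 6.38, 6.4 and 8.01 CPM. The KO groups did not overlap, and in WT only WT_HDM 5 and WT_saline 2 crossed. The fall was -0.62 ± 0.18 in KO lungs (adjusted p = 0.00815) and -0.78 ± 0.19 in WT lungs (adjusted p = 0.00403).

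Genes that restrain IL-1 rose with HDM. Il1rn, the IL-1 receptor antagonist, had 34.0, 32.3, 42.4, 68.5 and 23.6 CPM in KO_HDM and 8.19, 11.2, 8.54, 7.74 and 9.44 CPM in KO_saline. It had 44.3, 40, 39.2, 23.9 and 14.2 CPM in WT_HDM and 10.2, 6.11, 9.68, 7.27 and 9.05 CPM in WT_saline. All 10 HDM libraries exceeded all 10 saline libraries, KO_HDM 4 being the highest and WT_HDM 5 the lowest of them. The log2 fold change was 2.15 ± 0.29 in KO (adjusted p = 8.67e-06) and 1.93 ± 0.29 in WT (adjusted p = 0.000107). Il1r2, the decoy receptor that binds IL-1 without signalling, rose by 2.1 ± 0.43 in KO lungs (adjusted p = 0.000427) and 1.49 ± 0.44 in WT lungs (adjusted p = 0.0146).

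Il1r2 had 5.87, 5.9, 5.06, 10.8 and 3.23 CPM in KO_HDM and 1.15, 1.69, 1.14, 1.96 and 1.23 CPM in KO_saline. Its values were 6.12, 4.29, 2.49, 2.02 and 0.792 CPM in WT_HDM and 0.825, 1.09, 0.798, 2.02 and 0.754 CPM in WT_saline. In KO the groups did not overlap, and in WT the 2 lower HDM libraries lay within the saline range. The WT call ended without WT_HDM 1 (1.14, adjusted p = 0.0569), in the fit of the 10 WT libraries alone (adjusted p = 0.0567) and with voom (adjusted p = 0.0938). Il1r1, the signalling receptor, rose by 0.65 ± 0.11 in KO (adjusted p = 8.05e-05) and 0.36 ± 0.11 in WT (adjusted p = 0.0182).

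Markers of macrophages, monocytes and neutrophils were set beside the rises of Il1rn, Il1r2 and Il10. Only the macrophage and monocyte sums in KO lungs did not overlap between HDM and saline. Summed macrophage and monocyte markers were 521.6 to 879.8 CPM in KO_HDM and 291.3 to 373.1 CPM in KO_saline, and 288.2 to 478.0 CPM in WT_HDM and 260.7 to 401.3 CPM in WT_saline, with 5 of 6 called higher and 1 lower in KO and 2 higher and 1 lower in WT. Neutrophil markers summed to 133.1 to 338.1 CPM in KO_HDM and 162.2 to 238.8 CPM in KO_saline, and to 66.5 to 168.6 CPM in WT_HDM and 99.2 to 149.1 CPM in WT_saline, with 1 of 6 called higher in each genotype. None of these markers was at 0 in every library, and their part in the rises was not tested.

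As a ratio of counts within a library, Il1rn to Il1b stood at 2.20 ± 0.351 in KO_HDM and 0.548 ± 0.165 in KO_saline, and at 2.28 ± 0.843 in WT_HDM and 0.861 ± 0.150 in WT_saline (SD, n = 5 each). The lowest HDM ratio, 1.04 in WT_HDM 5, was above the highest saline ratio, 0.994 in WT_saline 1. The ratio of Il18bp, the soluble IL-18 binding protein, to Il18 was 2.96 ± 1.05 in KO_HDM and 0.900 ± 0.236 in KO_saline, and 2.22 ± 0.522 in WT_HDM and 1.04 ± 0.307 in WT_saline. These ratios compare counts, not molecules, because gene length was not removed, and no test was run on them.

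**Figure D2:**
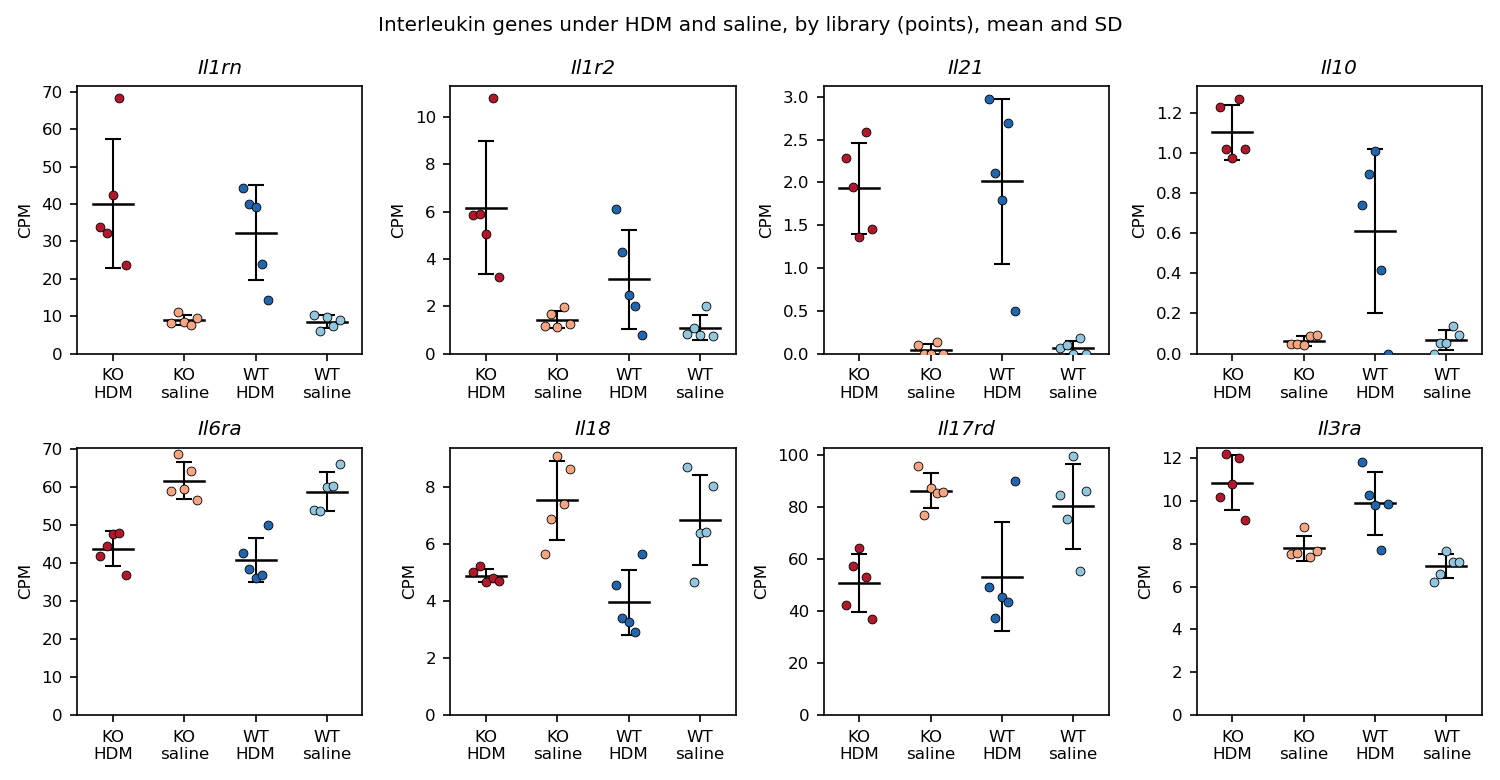
CPM (y axes, linear from 0) of 8 interleukin genes in each library, by group; points are libraries, lines are means and bars are SD of 5 libraries. Il1rn, Il1r2, Il21, Il10 and Il3ra are higher and Il6ra, Il18 and Il17rd lower in KO_HDM than in KO_saline without overlap, and WT_HDM 5 (rightmost WT_HDM point) lies near the saline libraries for Il21, Il10, Il1rn and Il17rd.

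Il22ra2, the soluble inhibitor of IL-22, fell nearly to zero. It had 0.16, 0.0974, 0.243, 0.221 and 0.0539 CPM in KO_HDM and 1.39, 1.97, 1.72, 4.13 and 1.87 CPM in KO_saline. In WT_HDM it had 0.803, 0.128, 0.155, 0.31 and 0.594 CPM, and in WT_saline 1.4, 0.57, 1.65, 30.6 and 1.37 CPM. The KO groups did not overlap, in WT the value of WT_saline 2 lay below those of 2 HDM libraries, and WT_saline 4 was far above every other library. The log2 fold change was -3.78 ± 1.07 in KO (adjusted p = 0.00629). In WT it was -4.11 ± 0.97 (adjusted p = 0.0038), -1.60 without WT_saline 4 (adjusted p = 0.0143) and -2.73 with voom (adjusted p = 0.0661). Il22ra2 passed the count filter through its saline libraries, where it is high, so these p-values are descriptions.

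Il1rl2, the receptor for IL-36, was the receptor with the smallest adjusted p in KO lungs. Its CPM were 18.1, 21.4, 21.0, 24.4 and 19.7 in KO_HDM and 9.0, 8.41, 9.5, 9.52 and 9.12 in KO_saline. They were 16.3, 13.4, 20.1, 13.1 and 14.9 in WT_HDM and 11.1, 11.1, 9.25, 9.75 and 9.52 in WT_saline. In both genotypes every HDM library lay above every saline library. The rise was 1.2 ± 0.11 in KO (adjusted p = 1e-07) and 0.62 ± 0.11 in WT (adjusted p = 0.000414), while the ligand Il1f9, which encodes IL-36 gamma, was at 0.06 ± 0.28 and -0.14 ± 0.29 (adjusted p = 0.877 and 0.747).

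Il3ra and Il5ra, the private receptor chains for IL-3 and IL-5, rose in both genotypes. Il3ra had 10.2, 12.2, 10.8, 12.0 and 9.11 CPM in KO_HDM and 7.52, 7.56, 8.8, 7.39 and 7.66 CPM in KO_saline. It had 11.8, 10.3, 9.79, 7.71 and 9.85 CPM in WT_HDM and 6.22, 6.58, 7.66, 7.13 and 7.16 CPM in WT_saline. Neither pair of groups overlapped, at 0.48 ± 0.11 in KO and 0.51 ± 0.11 in WT (adjusted p = 0.00118 and 0.00209). Il5ra, found on eosinophils, rose by 0.81 ± 0.29 in KO and 0.86 ± 0.29 in WT (adjusted p = 0.0271 and 0.0302), with overlap in both.

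The Il5ra call ended without KO_saline 2, 3 or 5 or KO_HDM 1 or 5 in KO lungs (adjusted p 0.0541 to 0.11) and in the 10 KO libraries alone (0.0512), and without WT_saline 3 or 5 or WT_HDM 2 or 3 in WT lungs (0.0589 to 0.0736). Summed eosinophil markers were 42.3 to 53.3 CPM in KO_HDM and 49.0 to 58.3 CPM in KO_saline, and 22.8 to 43.1 CPM in WT_HDM and 14.3 to 22.1 CPM in WT_saline, with 2 of 4 tested markers called higher and 1 lower in KO and 3 higher and 1 lower in WT. That list contains Alox15, which made up most of the KO sums, at 41.1 ± 4.07 CPM in KO_HDM and 40.8 ± 2.45 CPM in KO_saline. Without Alox15 the 4 other markers in the table summed to 7.28 to 11.4 CPM in KO_HDM and 8.14 to 13.6 CPM in KO_saline, and to 8.38 to 14.9 CPM in WT_HDM and 8.03 to 21.1 CPM in WT_saline. Among them Prg2, an eosinophil granule protein, rose by 4.02 ± 0.67 in KO and 3.90 ± 0.65 in WT (adjusted p = 6.7e-05 and 0.000216), and the eotaxin receptor Ccr3 by 2.29 ± 0.48 and 2.86 ± 0.47 (adjusted p = 0.000597 and 0.000227). Prg2 averaged 0.124 CPM in KO_saline and 0.192 CPM in WT_saline, and Ccr3 0.319 and 0.46 CPM. Both passed the count filter mainly through HDM libraries, where they are high, so their p-values are descriptions. Ear1, the most abundant of the 4, fell by 1.15 and 1.48 on the log2 scale (adjusted p = 0.0401 and 0.0193). None of the list's genes in the table was at 0 in every library, and their part in the result was not tested.

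Il20rb, a chain of the IL-20 and IL-24 receptors, rose by 0.75 ± 0.23 in both genotypes (adjusted p = 0.0101 in KO and 0.019 in WT).

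Receptors of the common gamma chain family, which carry IL-2, IL-7, IL-9, IL-15 and IL-21 signals in lymphocytes, gave 4 of 7 genes called higher in KO lungs (Il21r, Il2ra, Il2rg and Il7r) and 1 of 7 in WT lungs (Il9r). Il21r, the receptor of IL-21, had 36.8, 28.7, 24.5, 36.5 and 26.3 CPM in KO_HDM and 7.08, 5.59, 5.46, 16.5 and 4.92 CPM in KO_saline. It had 37.0, 43.2, 36.9, 45.4 and 12.1 CPM in WT_HDM and 10.3, 6.84, 8.56, 50.8 and 8.48 CPM in WT_saline. Within KO every HDM library lay above every saline library, and within WT every HDM library lay above the saline libraries other than WT_saline 4, which exceeded all of them. The log2 fold change was 1.95 ± 0.53 in KO (adjusted p = 0.00528) and 1.03 ± 0.52 in WT (adjusted p = 0.142), and the WT value became 2.03 without WT_saline 4 (adjusted p = 0.000604).

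The same library decided the WT call for 6 more genes. Without WT_saline 4, the WT log2 fold change was 2.80 for Il4i1 (adjusted p = 0.000341, against 0.212 with it) and 1.29 for Il7r, the IL-7 receptor (0.00111, against 0.0747). It was 0.99 for Il12rb1, a chain of the IL-12 and IL-23 receptors (0.00894, against 0.554), and 0.90 for Il27ra, the IL-27 receptor (0.0179, against 0.499). For Il2ra, the high-affinity IL-2 receptor chain, it was 0.69 (0.03, against 0.632), and for Il2rg, the common gamma chain, 0.57 (0.0216, against 0.719). In KO lungs these 6 genes rose by 2.01 ± 0.71, 1.39 ± 0.33, 1.60 ± 0.37, 0.88 ± 0.36, 1.17 ± 0.31 and 0.67 ± 0.27 in the same order (adjusted p between 0.00133 and 0.0473). Il7r was also called in WT without WT_HDM 5 (0.94, adjusted p = 0.0474), and with all 20 libraries voom called Il21r, Il4i1 and Il7r in WT (adjusted p = 0.0325, 0.0258 and 0.0221). Leaving out WT_saline 4, which in the KO comparison serves only to estimate the spread, also brought calls in KO lungs for Il2rb at 0.49 (adjusted p = 0.0435, against 0.167 with it) and for Il12b at 0.63 (0.0453, against 0.0535).

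**Figure D3:**
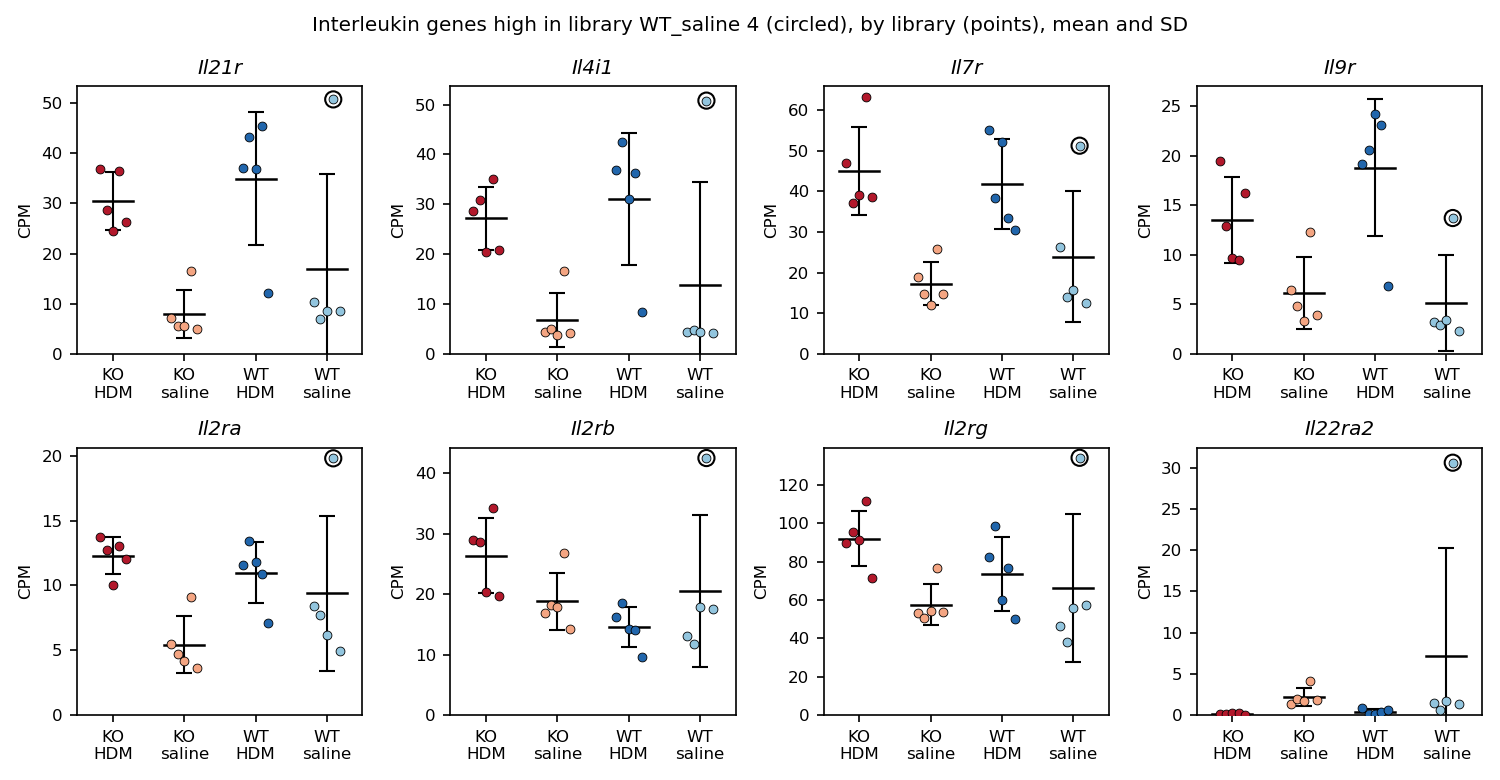
CPM (y axes, linear from 0) of 8 genes of the set that were high in WT_saline 4, in each library, by group; points are libraries, lines are means, bars are SD of 5 libraries, and WT_saline 4 is circled. WT_saline 4 lies above every other WT_saline library in each panel, at 50.8 CPM for Il21r and for Il4i1 and at 30.6 CPM for Il22ra2.

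Several of these calls in KO lungs were fragile and ended in fits that left out 1 library. The Il4i1 call ended without KO_saline 2, 3 or 5 (adjusted p 0.0504 to 0.0531). That of Il27ra ended without WT_saline 1, 2 or 3, WT_HDM 4, KO_saline 1, 2, 3 or 5, or KO_HDM 1, 2, 4 or 5 (0.0525 to 0.107), and that of Il2rg without WT_saline 3, WT_HDM 4, KO_saline 1, 2, 3 or 5, or KO_HDM 1, 2, 3 or 4 (0.0603 to 0.115). Summed T cell markers were 97.5 to 155.2 CPM in KO_HDM and 34.1 to 101.9 CPM in KO_saline, and 45.1 to 94.2 CPM in WT_HDM and 31.1 to 270.4 CPM in WT_saline. With HDM, 3 of 7 tested T cell markers were called higher and 0 lower in KO, and 0 higher and 1 lower in WT; none of the 7 was at 0 in every library, and their part in the result was not tested. B and plasma cell markers summed to 980.5 to 1924.5 CPM in KO_HDM and 281.5 to 391.4 CPM in KO_saline, and to 560.9 to 1106.0 CPM in WT_HDM and 292.9 to 681.7 CPM in WT_saline. The highest WT_saline sum was that of WT_saline 4, where no other saline library exceeded 391.4 CPM. With HDM, 4 of 7 of these markers were called higher in KO and 3 of 7 in WT, 0 were called lower, and none was at 0 in every library; their part was not tested.

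Il9r, the receptor of the mast cell and T cell growth factor IL-9, had 19.5, 12.9, 9.63, 9.43 and 16.2 CPM in KO_HDM and 6.46, 4.79, 3.3, 12.3 and 3.92 CPM in KO_saline. It had 19.2, 20.6, 24.2, 23.1 and 6.88 CPM in WT_HDM and 3.24, 2.85, 3.35, 13.7 and 2.31 CPM in WT_saline. Library 4 of each saline group was the high one, and both pairs of groups overlapped through it. The rise was called in WT (1.87 ± 0.49, adjusted p = 0.00747) and missed in KO (1.13 ± 0.48, adjusted p = 0.0544). In KO it was called without WT_saline 4, WT_saline 5, WT_HDM 5 or KO_saline 4 (adjusted p 0.0113 to 0.0435), with DESeq2 (0.0241) and with voom (0.023). The interaction for Il9r was -0.74 ± 0.67 (adjusted p = 0.64).

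The IL-6 receptor pair fell. Il6ra, the ligand-binding chain, had 41.8, 44.5, 47.5, 47.9 and 36.8 CPM in KO_HDM and 58.8, 68.6, 59.4, 64.2 and 56.5 CPM in KO_saline. It had 42.6, 38.3, 36.1, 36.7 and 49.8 CPM in WT_HDM and 53.9, 53.5, 59.8, 60.2 and 66.0 CPM in WT_saline. All HDM libraries were below all saline libraries, at -0.49 ± 0.10 in KO and -0.53 ± 0.10 in WT (adjusted p = 0.000272 and 0.000484). Il6st, the shared gp130 chain, fell by 0.48 on the log2 scale in KO (adjusted p = 0.000163) and by 0.26 in WT (adjusted p = 0.0289).

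The WT call of Il6st ended without WT_saline 3 or 5, WT_HDM 1, 2, 3 or 4, or KO_saline 1, 3, 4 or 5 (adjusted p 0.0514 to 0.127), and also in the fit of the 10 WT libraries alone (0.117). With HDM in KO lungs Il11ra1, the IL-11 receptor, fell by 0.32 on the log2 scale (adjusted p = 0.00323) and was at -0.02 ± 0.08 in WT (adjusted p = 0.871); it may share reads with its near-identical copy Il11ra2, so that its own level is uncertain.

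Of 5 receptors for IL-17 cytokines, 3 fell and 1 rose in KO lungs, and 1 fell in WT lungs. Il17rd, which modifies IL-17 and fibroblast growth factor signals, had 42.1, 57.1, 64.1, 53.1 and 36.9 CPM in KO_HDM and 95.8, 76.8, 87.3, 85.1 and 85.8 CPM in KO_saline. It had 49.3, 37.4, 45.3, 43.6 and 89.8 CPM in WT_HDM and 84.7, 75.3, 99.4, 55.4 and 86.1 CPM in WT_saline. The KO groups did not overlap, and in WT only WT_HDM 5 reached the saline range. The change was -0.77 ± 0.20 in KO (adjusted p = 0.00398) and -0.59 ± 0.20 in WT (adjusted p = 0.0337). The WT call ended without WT_saline 3 or 5 or WT_HDM 1, 2, 3 or 4 (adjusted p 0.0726 to 0.105) and in the 10 WT libraries alone (0.0977).

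Il17rc, the chain that joins Il17ra to bind IL-17A and IL-17F, and Il17re, the chain for IL-17C, fell in KO lungs by 0.60 and 0.59 on the log2 scale (adjusted p = 0.000441 and 0.000646) and were at -0.22 ± 0.12 and -0.23 ± 0.13 in WT (adjusted p = 0.181 for each). Il17ra, the shared chain, rose in KO lungs instead, by 0.55 ± 0.10 (adjusted p = 0.000225), and was at 0.13 ± 0.10 in WT (adjusted p = 0.375). In KO lungs the 5 HDM and 5 saline libraries did not overlap for any of these 3 chains. The 3 interactions had adjusted p of 0.294, 0.327 and 0.165.

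Il22ra1, the epithelial IL-22 receptor, fell by 0.55 on the log2 scale in KO and by 0.52 in WT (adjusted p = 0.021 and 0.0475). Its KO call ended without KO_saline 1 or 5 or KO_HDM 2 or 3 (adjusted p 0.0517 to 0.0755). Its WT call held only without WT_saline 1, WT_saline 4, WT_HDM 5 or KO_HDM 5, and ended in the other 16 fits that left out 1 library (0.0507 to 0.159). It also ended without the filter (0.0629), with the 1 CPM filter (0.0637) and in the 10 WT libraries alone (0.117). Il18r1, the IL-18 receptor, fell in WT by 0.38 on the log2 scale (adjusted p = 0.0319) and was at -0.23 ± 0.13 in KO (adjusted p = 0.153). That WT call ended without WT_saline 1 or 5, WT_HDM 1, 2, 3 or 4, or KO_saline 4 (0.0503 to 0.0787) and in the 10 WT libraries alone (0.0693), and a KO call appeared without KO_HDM 4 (-0.33, adjusted p = 0.0392).

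Markers of lung epithelium summed to 8659.9 to 14263.0 CPM in KO_HDM and 26539.9 to 38548.5 CPM in KO_saline, and to 8987.2 to 20532.7 CPM in WT_HDM and 21056.1 to 30581.8 CPM in WT_saline. With HDM 5 of 6 were called lower in KO and 1 of 6 in WT. Scgb1a1 and Sftpc made up most of these sums. Scgb1a1, the 1 marker called in WT, averaged 5856.5 CPM in WT_HDM and 15434.4 CPM in WT_saline, and Sftpc 6540.1 and 7059.5 CPM. In KO_HDM and KO_saline Scgb1a1 averaged 5548.9 and 19818.4 CPM, and Sftpc 5417.3 and 9721.1 CPM. All 6 endothelial markers were called lower in both genotypes, and none of these 12 markers was at 0 in every library. Their part in the falls of Il6ra, Il6st, Il18, Il22ra1 and the IL-17 receptors was not tested.

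Without the 5 libraries with Adipoq at 50 CPM or more, a subset chosen after the data were seen, the WT calls of Il1r1, Il5ra, Il6, Il6st, Il17rd, Il20rb and Il22ra1 ended (adjusted p 0.0704 to 0.359), as did the KO calls of Il5ra, Il6 and Il15 (0.055 to 0.097). That fit has 15 libraries.

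The IL-17 ligands lay under the count filter, except for Il17d, and are given as counts. Il17a, the neutrophil-recruiting cytokine of Th17 and gamma-delta T cells, had 9, 42, 15, 42 and 15 counts in KO_HDM and 0, 3, 1, 0 and 0 in KO_saline. It had 7, 5, 2, 3 and 7 counts in WT_HDM and 0 in every WT_saline library. Each KO_HDM library had more counts than any WT_HDM library, and each WT_HDM library had more than any WT_saline library. Scaled to library size, the summed Il17a counts were 35.0-fold higher in KO_HDM than in KO_saline (123 against 4 counts). They were at least 9.2-fold higher in WT_HDM (24 counts) than in WT_saline, taking 3 counts over the group as the floor, which covers counting error only.

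In summed counts per library size, Il17a was 4.47 times as high in KO_HDM as in WT_HDM. Il17f, its close relative, had 4, 15, 3, 6 and 0 counts in KO_HDM and a sum of 2 in KO_saline, and 1 count in each WT_HDM library and a sum of 1 in WT_saline. With all 20 libraries neither gene could be fitted with the filter. Both reached the 10 summed counts of the set mainly through the HDM libraries, so that no test is read for them and the counts stand as a description. Il17c, the epithelial IL-17, summed to 21 counts in KO_HDM and 11 in KO_saline, and to 41 in WT_HDM and 28 in WT_saline.

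**Figure D4:**
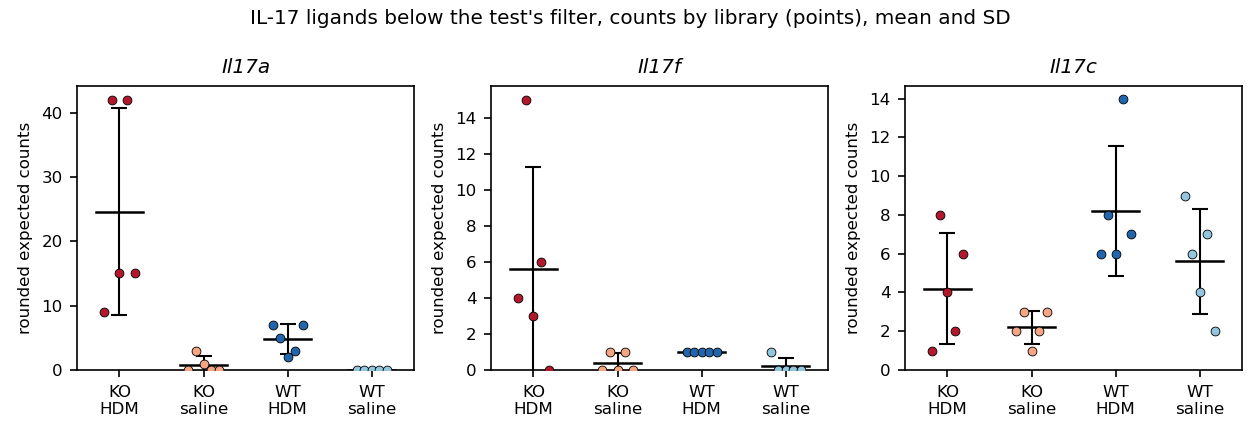
Rounded expected counts (y axes, linear from 0) of Il17a, Il17f and Il17c in each library, by group; points are libraries, lines are means and bars are SD of 5 libraries. Il17a reaches 42 counts in 2 KO_HDM libraries, lies between 2 and 7 in WT_HDM and is at 0 in all WT_saline libraries, while Il17c has no such step.

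The other 9 genes under the filter had at most 33 counts in any group. They were Il2, Il17b, Il20ra, Il23a, Il24, Il27, Il11ra2, Il1rapl1 and Il1bos, and in a fit of 18783 genes without the filter none of them had an adjusted p under 0.1 in any comparison. Il2, the T cell growth factor, summed to 3 counts in KO_HDM and 4 in KO_saline, and to 2 in WT_HDM and 7 in WT_saline. Il22 and Il3 were left out with 4 counts over all libraries, and Il9, Il20, Il25 and Il1f8 had no count, so that the ligands of several receptors above were not measurable at this depth.

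Under saline, no gene of the set was called between KO and WT by edgeR, beside 0.593% of all tested genes called higher, 0.315% called lower and 0.908% in all. DESeq2 and voom also called 0, and 9 of 51 genes had an unadjusted p under 0.05. The share of all tested genes under that unadjusted level was not counted, so the 9 genes do not set the interleukin genes apart. The smallest adjusted p was 0.171, for Il10ra, at 28.9 ± 3.70 CPM in KO_saline and 38.4 ± 6.97 CPM in WT_saline (SD, n = 5 each; log2 fold change -0.41 ± 0.13). Only Il10rb had groups that did not overlap (1.96% of the set; 3.06% of all tested genes), with 91.5 ± 7.86 CPM in KO_saline and 75.4 ± 7.10 CPM in WT_saline (0.28 ± 0.09, adjusted p = 0.189). Il1b was at 17.6 ± 5.04 CPM in KO_saline and 10 ± 2.47 CPM in WT_saline (0.82 ± 0.27, adjusted p = 0.189).

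Under HDM, 2 genes were higher and 1 was lower in KO than in WT (5.88% called), beside 4.79% of all tested genes called higher, 1.88% called lower and 6.67% in all. The groups did not overlap for 6 genes (11.8% of the set; 7.01% of all tested genes): Il31ra lay lower in KO_HDM, and Il7, Il12rb1, Il15, Il18bp and Il2rb lay higher. Il31ra, which pairs with the oncostatin M receptor to bind the itch cytokine IL-31, was lower in KO. It had 1.01, 0.78, 0.584, 0.882 and 0.916 CPM in KO_HDM and 3.27, 2.82, 4.97, 2.28 and 1.88 CPM in WT_HDM. The saline libraries lay at 0.132 to 0.939 CPM in KO_saline and at 0.322 to 1.01 CPM in WT_saline, so that WT_HDM was the 1 group that stood apart. The difference between KO_HDM and WT_HDM was -1.85 ± 0.38 (adjusted p = 0.00569) and kept its call in every alternative fit, each library left out in turn included.

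With HDM, Il31ra was at 0.48 ± 0.40 in KO lungs (adjusted p = 0.326) and rose by 2.23 ± 0.39 in WT lungs (adjusted p = 0.000357). The test of that difference itself gave an interaction of -1.75 ± 0.56, with an unadjusted p of 0.00526 and an adjusted p of 0.127. The promoter of Il31ra printed above holds 1 TTCNNNGAA.

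Il18bp, the soluble trap for IL-18, was higher in KO, with 10.9, 14.0, 14.2, 22.7 and 10.3 CPM in KO_HDM and 9.02, 9.53, 7.3, 7.5 and 8.37 CPM in WT_HDM. All KO_HDM libraries exceeded all WT_HDM libraries (0.79 ± 0.21, adjusted p = 0.0313). The call ended without WT_HDM 3, 4 or 5 or KO_HDM 2, 3 or 4 (adjusted p 0.0538 to 0.112). With HDM, Il18bp rose in KO by 1.14 ± 0.21 (adjusted p = 0.000211) and was at 0.27 ± 0.22 in WT (adjusted p = 0.376), with an interaction of 0.87 ± 0.30 (adjusted p = 0.162).

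Il1rl2 was also higher, by 0.43 ± 0.11 (adjusted p = 0.0217), and the 2 HDM groups overlapped through WT_HDM 3 at 20.1 CPM. That call ended without WT_HDM 4 or KO_HDM 4 (adjusted p 0.0541 to 0.0671), in the 10 HDM libraries alone (0.0805) and without the 5 libraries with Adipoq at 50 CPM or more (0.121). Il2rb, the IL-2 and IL-15 receptor chain, did not pass (0.86 ± 0.29, adjusted p = 0.0862) although its groups did not overlap, at 26.4 ± 6.25 CPM in KO_HDM and 14.5 ± 3.26 CPM in WT_HDM (SD, n = 5 each). Without WT_saline 4, which serves here only to estimate the spread, Il2rb was called at 0.86 (adjusted p = 0.0115), as was Il12rb1 at 0.93 (adjusted p = 0.0218). DESeq2 also called Il2rb (adjusted p = 0.0368). Calls also appeared for Il12b without KO_HDM 1 (0.92, adjusted p = 0.0384), and for Il10rb and Il18rap without KO_HDM 5 (0.31 and 0.61, adjusted p = 0.0406 and 0.0281).

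**Figure D5:**
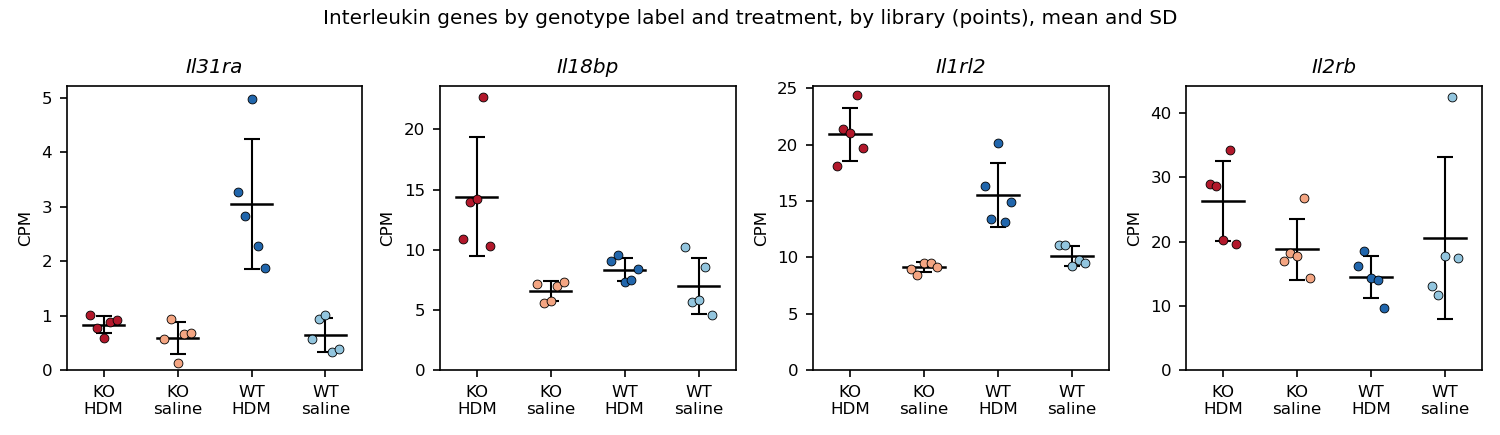
CPM (y axes, linear from 0) of Il31ra, Il18bp, Il1rl2 and Il2rb in each library, by group; points are libraries, lines are means and bars are SD of 5 libraries. The 5 WT_HDM libraries stand above the other 3 groups for Il31ra, whereas KO_HDM has the highest mean for Il18bp, Il1rl2 and Il2rb.

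Summed macrophage and monocyte markers were 521.6 to 879.8 CPM in KO_HDM and 288.2 to 478.0 CPM in WT_HDM, with 4 of 6 called higher. Neutrophil markers summed to 133.1 to 338.1 CPM in KO_HDM and 66.5 to 168.6 CPM in WT_HDM, also with 4 of 6 called higher. Liver markers summed to 33.5 to 106.8 CPM in KO_HDM and 2.48 to 6.29 CPM in WT_HDM, with 5 of 6 called higher. Of the liver markers, Mup20, Ttr, Fgb and Apoa1 averaged 0.038 CPM or less in every group but KO_HDM. They passed the count filter only through KO_HDM, where they are high, so calls among them are descriptions. None of the macrophage, monocyte, neutrophil or liver markers was at 0 in every library, and their part in the genotype differences was not tested.

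No gene of the set passed the interaction test by edgeR, beside 1% of all tested genes called higher, 0.235% called lower and 1.24% in all. Voom also called 0, DESeq2 called Il1rl2 and Il10ra (adjusted p = 0.0151 and 0.0348), and 13 of 51 genes had an unadjusted p under 0.05. Here too the share of all tested genes under that level was not counted, so the 13 genes do not set the interleukin genes apart. Il1rl2 had the smallest adjusted p, 0.0697 at 0.58 ± 0.15, and passed without WT_HDM 3 (0.69, adjusted p = 0.0199). Hence a gene called in 1 genotype and not in the other is not shown to differ between them. The KO and WT comparisons with HDM share no library, whereas the genotype comparisons reuse the same libraries.

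The machinery around these receptors was followed in lists of genes outside the set. With HDM, 26.2% of all tested genes were called higher and 25.7% lower in KO, and 13.6% and 16.5% in WT. The counts of these lists, and of the marker lists above, are to be read beside those shares. No list was tested as a set. Of 8 inflammasome and IL-1 processing genes, 8 rose in KO lungs and 6 in WT lungs, and none fell. The DNA sensor Aim2 rose by 1.72 ± 0.20 in KO and 0.97 ± 0.20 in WT (adjusted p = 1.68e-06 and 0.00133), and the adaptor Pycard by 1.51 ± 0.18 and 0.74 ± 0.18 (adjusted p = 1.5e-06 and 0.00413). Pycard was also higher in KO_HDM than in WT_HDM, by 0.78 ± 0.17 (adjusted p = 0.0102).

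Of 15 receptor chains and cytokines that partner members of the set, 7 rose and 2 fell in KO, and 5 rose and 2 fell in WT. Csf2rb, the common beta chain used with Il3ra and Il5ra, rose by 1.82 ± 0.21 in KO and 0.94 ± 0.21 in WT (adjusted p = 1.45e-06 and 0.00233). Its near copy Csf2rb2 rose by 2.07 ± 0.38 and 1.04 ± 0.37 (adjusted p = 0.000208 and 0.0421), and the 2 may share reads. Osm, the gp130 cytokine oncostatin M, rose by 1.77 ± 0.31 and 0.85 ± 0.31 (adjusted p = 0.00012 and 0.0461).

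Of 11 Janus kinases and STATs, 5 rose and 2 fell in KO, and 4 rose and 1 fell in WT. Jak2 rose by 0.68 ± 0.09 in KO and 0.34 ± 0.09 in WT (adjusted p = 4.74e-06 and 0.00667), and Stat5b fell by 0.35 and 0.30 on the log2 scale (adjusted p = 0.000219 and 0.00214). Of 8 SOCS feedback inhibitors, 3 rose and 2 fell in KO, and 1 rose and 1 fell in WT; Socs3, the brake on gp130, rose by 0.53 ± 0.15 and 0.46 ± 0.15 (adjusted p = 0.00669 and 0.029).

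Of 16 adaptors of the IL-1 and IL-17 receptors, 6 rose and 4 fell in KO, and 2 rose and 3 fell in WT. Traf3ip2, the Act1 adaptor of IL-17 receptors, fell by 0.60 on the log2 scale in KO and by 0.38 in WT (adjusted p = 2.82e-05 and 0.00434). Nfkbiz, a nuclear cofactor of IL-1 and IL-17 responses, rose by 0.91 ± 0.12 and 0.76 ± 0.12 (adjusted p = 3.72e-06 and 9.65e-05). Irak3, a kinase-dead brake on MyD88 signalling, rose by 0.76 ± 0.09 in KO (adjusted p = 1.67e-06), was higher in KO_HDM than in WT_HDM by 0.48 ± 0.09 (adjusted p = 0.00272) and passed the interaction test at 0.60 ± 0.13 (adjusted p = 0.0257).

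Of 9 T helper lineage regulators, 4 rose and 2 fell in KO, and 1 rose and 1 fell in WT. Maf, which drives Il10 and Il21 transcription in T cells, rose by 1.42 ± 0.13 in KO and 0.38 ± 0.13 in WT (adjusted p = 8.15e-08 and 0.0299), and its interaction was 1.04 ± 0.18 (adjusted p = 0.00816). Foxp3, the regulatory T cell factor, rose in KO by 1.88 ± 0.51 (adjusted p = 0.00474), and Gata3, the Th2 factor, fell in KO by 0.60 on the log2 scale (adjusted p = 0.0016).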

How the data were processed

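Whole-lung RNA of 20 libraries was measured by strand-specific RNA sequencing, per the labels' protocols, which name both oligo-dT selection and ribosomal RNA depletion. The authors deposited expected counts per gene, not normalized; per the submitters' processing notes, Bowtie2 2.1.0 and RSEM 1.2.15 were used. They list the human build hg38, while the symbols are mouse, so the build used is not known and coordinates belong only to the RefSeq promoters of GRCm38.p6. RSEM shares reads between similar genes.

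Expected counts were rounded (17.73% were not whole). The model, edgeR 4.0.16 in R 4.3.3 with a robust quasi-likelihood F test, had 1 mean per group over all 20 libraries after filterByExpr by group and TMM scaling. CPM use TMM-scaled library sizes. P-values were Benjamini-Hochberg adjusted over 16193 genes within each of 5 comparisons, at 0.05. The step was tested on simulated counts. Alternatives were RLE scaling, no filter, 1 CPM in 5 libraries, DESeq2 1.42.0, limma 3.58.1 voom, a replicate block, the 10 compared libraries alone, each library left out, and 2 subsets chosen after the data were seen. No 2 libraries held identical counts.

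Named were all genes of the set that passed in a comparison, their partner chains, the genes under the filter by count, and up to 4 passing genes of each pathway list with the largest changes. Other members named, such as Il5, Il16 and Il34, were added after their values were seen. One gene of a pathway list is not reported here by name. The members and lists were chosen with earlier results of these data known. Depth is 12573113 expected counts or more per library, and floors cover counting error only.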

Additional observations from a re-analysis of the deposited data

Results flagged for a closer look

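Of 204 groups of 5 libraries (51 genes in 4 groups), 25 (12.3%) held 1 library far from the other 4 by Dixon's criterion. Chance alone meets it in about 1 group in 20 where values are independent and normal. Here it was applied to CPM without a log, and the groups share 20 libraries, so that rate is no benchmark. WT_saline 4 accounted for 11 of the 25 and KO_saline 4 for 6.

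In WT_saline 4 the outlying values were the highest of the group. They were 50.8 CPM for Il21r (6.84 to 10.3 CPM in the other 4 libraries), 50.8 CPM for Il4i1 (4.24 to 4.77), 30.6 CPM for Il22ra2 (0.57 to 1.65) and 13.7 CPM for Il9r (2.31 to 3.35). Il27ra stood at 24.6 CPM (6.63 to 8.95), Il2rg at 134.3 CPM (38.3 to 57.5), Il2rb at 42.5 CPM (11.7 to 17.8) and Il2ra at 19.8 CPM (4.9 to 8.38). Il16, which encodes a chemoattractant for CD4 T cells, stood at 103.9 CPM (39.5 to 53.1), Il12rb1 at 3.59 CPM (0.635 to 1.38) and Il1r2 at 2.02 CPM (0.754 to 1.09).

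In KO_saline 4 the highest values were 16.5 CPM for Il21r (4.92 to 7.08 CPM in the other 4 libraries), 16.5 CPM for Il4i1 (3.78 to 4.88) and 4.13 CPM for Il22ra2 (1.39 to 1.97). Il27ra stood at 12.7 CPM (4.88 to 6.29), Il2rg at 76.6 CPM (50.4 to 54.2) and Il18rap, the IL-18 receptor accessory chain, at 18.3 CPM (15 to 15.5). Of these 6 genes, 5 also stood apart in WT_saline 4.

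In WT_HDM 5 the values lay toward the saline libraries: Il21r was lowest at 12.1 CPM (36.9 to 45.4 in the others), Il9r lowest at 6.88 CPM (19.2 to 24.2) and Il17rd highest at 89.8 CPM (37.4 to 49.3). The other outlying values were Il11 in WT_HDM 3 at 1.86 CPM (0.989 to 1.19), Il1b in KO_HDM 4 at 29.5 CPM (13.0 to 17.1), Il1f9 in KO_saline 3 at 12.4 CPM (5.84 to 6.2), Il3ra in KO_saline 3 at 8.80 CPM (7.39 to 7.66) and Il6st in KO_saline 2, lowest at 625.7 CPM (736.2 to 775.1).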

How the results depend on the processing

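No gene of the set changed direction among its called values under any alternative. The counts that moved by over 1.5 times follow. With HDM in WT, genes of the set called lower numbered 3 in the 10 WT libraries alone and 4 without the libraries with Adipoq at 50 CPM or more (7 as reported), and those called higher numbered 21 without WT_saline 4 and KO_saline 4 (13 as reported). All genes called in that comparison numbered 2854 in the 10 libraries alone (4866 as reported). For KO against WT under HDM, genes of the set called higher numbered 5 without WT_saline 4 and KO_saline 4 (2 as reported). DESeq2 called 327 genes for KO against WT under saline (147 as reported), and 608 genes and 2 of the set higher for the interaction (200 and 0 as reported); without the Adipoq libraries the interaction gave 103 genes.

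Leaving out 1 library at a time gave, with HDM in KO, 19 to 27 of the set higher, 8 to 10 lower and 7614 to 9017 genes in all. With HDM in WT it gave 12 to 20 higher (20 without WT_saline 4), 3 to 7 lower and 3691 to 5896 in all. KO against WT under HDM gave 0 to 5 higher (0 without WT_HDM 4 or KO_HDM 4, 5 without WT_saline 4 or KO_HDM 5), 1 lower throughout and 576 to 1396 in all. Under saline the genotype comparison gave 0 of the set and 102 to 180 genes, and the interaction 0 to 1 of the set higher and 79 to 260 genes. These counts include Il17a, which the filter admitted in 18 of the 20 fits; over the 51 genes tested with all libraries, 18 to 26 were higher with HDM in KO, 11 to 19 in WT (19 without WT_saline 4) and 0 to 4 between genotypes under HDM. Il17a is also 1 of the genes counted without WT_saline 4 and KO_saline 4. The call of Il31ra between genotypes held in all of them.

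Whether replicate numbers pair the libraries was not settled. Of 30 same-numbered pairs across groups, 17 had deviations correlated at over 0.1 (r from -0.457 to 0.506), and r ran from -0.703 to 0.72 over 120 other pairs. The other pairs over 0.1 were not counted, so these ranges cannot decide it. A replicate block gave 24 of the set higher and 9 lower with HDM in KO (8584 genes), 16 and 7 in WT (5058), 0 between genotypes under saline (160), 4 higher (Il18bp, Il1rl2, and also Il2rb and Il7) and 1 lower under HDM (1047) and 0 for the interaction (246). Depth limits the ligands most: Il2, Il17b and Il22 had too few counts for a difference to be detectable.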
